A study of Mus musculus with 34 samples.

Results

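The immunity-related GTPases (IRG proteins) were followed in mouse CD4+ spleen cells through 6 genes, Irgm1, Irgm2, Igtp, Iigp1, Tgtp1 and Ifi47. Members were taken as genes with a probe set annotated to 1 symbol, and 2 of the 6 had one, Irgm1 (probe set 10385500) and Iigp1 (probe set 10455961), of 19938 genes so annotated on the array. The other 4 were measured only together with another gene. Irgm2 and Igtp shared probe set 10376326, Tgtp1 was listed with Tgtp2 on probe sets 10385518 and 10385533, and Ifi47 was listed with the olfactory receptor gene Olfr56 on probe set 10375515. These 4 shared probe sets are described by both of their names, since no single gene can be read from them. Both genes and all 4 shared probe sets passed the limit on low values.

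The cells came from spleens of 8-week-old female mice of 5 inbred strains, C57BL/6J, Balb/c, A/J, 129X1/SvJ and DBA/2J, and were selected with magnetic CD4 beads. At T1 they had been stimulated for 4 h with the phorbol ester PMA (10 ng/ml), which activates protein kinase C, and the calcium ionophore ionomycin (1 uM). At T0 they were unstimulated. A/J and C57BL/6J had 4 arrays per time, and Balb/c, DBA/2J and 129X1/SvJ had 3 per time, 34 arrays in all. The protocol reads as if both portions were cultured for 4 h, while the labels call T0 the basal state. If T0 cells were not cultured, time in culture and the stimulus cannot be told apart.

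IRG genes are switched on by interferons in the mouse, most strongly by interferon-gamma, which activated T cells and natural killer cells secrete. Receptor binding activates the kinases Jak1 and Jak2, and induced genes carry GAS elements (gamma-activated sites) or interferon-stimulated response elements (ISREs). The induced factor Irf1 binds ISREs. The GTPases Iigp1, Tgtp1 and Ifi47 load onto the vacuole membranes of intracellular parasites and bacteria, while the regulators Irgm1, Irgm2 and Igtp sit on the cell's own membranes and hold the others inactive. In mouse CD4+ T cells Irgm1 is known to be needed for survival during interferon-gamma responses.

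Promoter sequence is shown for 5 genes of chromosome 11 because their probe sets carry the results and their windows share interferon motifs. RefSeq promoter windows of GRCm38.p6 run from 250 bases before to 50 after the gene start, and each line gives 60 bases of 1 window, 5′ to 3′ on the gene's strand. The intervals are chr11:48871421-48871480 (minus strand) for Irgm1, chr11:58214883-58214942 (plus) for Irgm2, chr11:58199492-58199551 (plus) for Igtp, chr11:48992294-48992353 (minus) for Tgtp1 and chr11:49064253-49064312 (minus) for Tgtp2. Capitals mark matches to an ISRE core, which is GAAA repeated after 2 bases of any kind, or to a GAS element, TTCNNNGAA, both searched on both strands.
Irgm1: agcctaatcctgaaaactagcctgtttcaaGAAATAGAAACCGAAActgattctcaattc
Irgm2: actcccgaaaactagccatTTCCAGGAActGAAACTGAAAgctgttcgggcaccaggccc
Igtp: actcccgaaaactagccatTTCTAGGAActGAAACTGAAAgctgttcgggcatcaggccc
Tgtp1: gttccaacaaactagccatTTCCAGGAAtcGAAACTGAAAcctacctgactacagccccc
Tgtp2: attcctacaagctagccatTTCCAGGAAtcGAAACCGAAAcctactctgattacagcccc

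The windows of Irgm2, Igtp, Tgtp1 and Tgtp2 each held a GAS match and, 2 bases after it, an ISRE core. Irgm1 had 2 ISRE cores, which overlapped by 4 bases, and no GAS match. An ISRE core was present in 3.44% of 32851 RefSeq promoter windows, a GAS match in 8.3% and both in 0.454%. The windows shown were picked partly for their motifs, so these shares are no test of them. In these 60 bases Irgm2 and Igtp were identical at 58 positions and Tgtp1 and Tgtp2 at 46. The Ifi47 window held neither run of letters. A match is only a run of letters, and binding was not measured.

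Values are log2 intensities that the authors normalised by RMA (robust multi-array average), which gives the arrays a common distribution of probe intensities. A value is thus relative to the other probes of its array, and differences are on that scale. Array medians ran between 5.28 and 5.39. Balb/c T1 replicate 2 stood apart, with a mean correlation of 0.948 with its group, while the arrays outside Balb/c T1 had at least 0.976. Some IRG results, such as the T1 strain tests that this array moved, are also given without it. The T cell genes Cd3e, Cd3d, Cd3g, Cd4, Cd5, Cd28 and Cd2 were present, with averages of 9.04 to 9.69 at T1 and 9.66 to 10.02 at T0. In bulk RNA, fewer cells of a type and less RNA per cell cannot be told apart. A gene or probe set was called at an adjusted p under 0.05 (limma with Benjamini-Hochberg adjustment). Without Balb/c T1 replicate 2, calls for strains at T1 rose to 4196 of 11413 genes, from 3533. Calls for a change with stimulation that differed between strains rose to 1185, from 790. The shares of all genes given below, and the values of pathway and marker genes, include that array.

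Irgm1, the regulator, fell with stimulation in C57BL/6J and Balb/c and was not called in the other 3 strains. Averaged over strains it was 0.34 log2 lower at T1 (T1 minus T0 -0.34, SE 0.07, adjusted p = 4.91e-05). T1 was lower than the T0 array of the same strain and number in 11 of 17 cases. Of the 11413 genes tested, 46.3% were called lower at T1 and 82.3% were called in either direction, so the call itself is common here. Within strains the share of genes called lower was 38.6% (C57BL/6J), 36.3% (A/J), 36.2% (DBA/2J), 34.7% (129X1/SvJ) and 34.1% (Balb/c). Both members together were called lower in 5 of 10 strain comparisons.

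In C57BL/6J the Irgm1 values were 9.55, 9.5, 9.51 and 9.55 at T1, against 10.86, 10.71, 10.87 and 10.92 at T0. The groups lay far apart, with means of 9.53 ± 0.02 at T1 and 10.84 ± 0.09 at T0 (SD, n = 4 each), a 2.48-fold lower intensity at T1 (-1.31 log2, SE 0.14, adjusted p = 1.72e-09). In Balb/c they were 9.73, 9.85 and 10.00 at T1, against 10.31, 10.20 and 10.65 at T0. All T1 arrays were below all T0 arrays in both strains, as for 33.6% of genes in C57BL/6J and 34.5% in Balb/c. The Balb/c difference was -0.53 (SE 0.16, adjusted p = 0.00618), and it was -0.40 and no longer called (adjusted p = 0.0563) without Balb/c T0 replicate 4.

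The remaining strains overlapped between times for Irgm1. A/J had 9.69, 9.43, 9.82 and 9.59 at T1, against 10.18, 10.11, 9.29 and 9.91 at T0 (-0.24, SE 0.14, adjusted p = 0.14). The value of 9.29 belonged to A/J T0 replicate 4, which was also the lowest A/J T0 array for Iigp1, for the 4 shared probe sets and for Ifng. Without it the A/J difference was -0.44 and was called (adjusted p = 0.00257). DBA/2J had 9.89, 9.97 and 9.72 at T1, against 9.42, 9.75 and 9.40 at T0 (0.34, SE 0.16, adjusted p = 0.0682). DBA/2J was thus the strain whose T1 mean was the most above its T0 mean, and the difference was called without A/J T0 replicate 4 (0.34, adjusted p = 0.023) or without DBA/2J T0 replicate 3 (0.45, adjusted p = 0.0298). 129X1/SvJ had 9.62, 9.38 and 9.77 at T1, against 9.46, 9.71 and 9.41 at T0 (0.06, SE 0.16, adjusted p = 0.765).

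**Figure D1:**
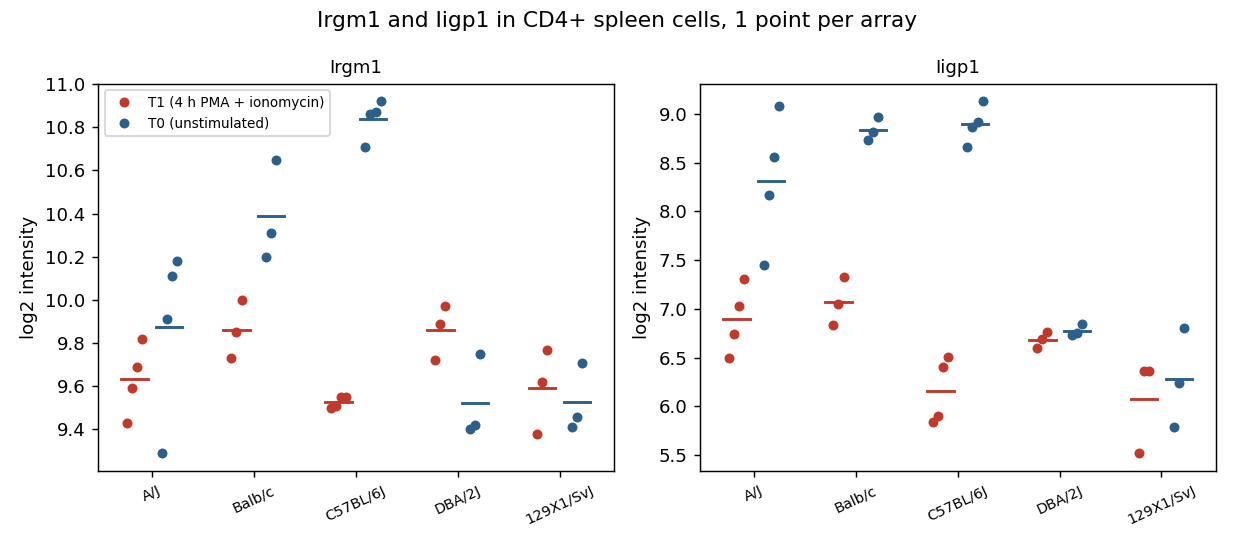
Log2 intensity of Irgm1 and Iigp1 on each of the 34 arrays, by strain on the horizontal axis, with T1 (red) left of T0 (blue) in each strain and bars at the group means. Over strains the red means span 0.34 for Irgm1 and 0.99 for Iigp1, and the blue means span 1.32 and 2.62, with C57BL/6J highest.

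Iigp1, which binds to parasite vacuoles, was lower at T1 in A/J, Balb/c and C57BL/6J and was not called in DBA/2J or 129X1/SvJ. The mean over strains was -1.24 (SE 0.12, adjusted p = 6.58e-11), a 2.37-fold lower intensity, and T1 was lower in 15 of 17 same-numbered cases. In C57BL/6J the values were 6.40, 5.90, 6.51 and 5.84 at T1, against 9.13, 8.92, 8.66 and 8.87 at T0 (-2.73, SE 0.24, adjusted p = 5.6e-11). This was a 6.64-fold lower intensity at T1. Balb/c had 6.83, 7.05 and 7.33 at T1, against 8.81, 8.73 and 8.97 at T0 (-1.77, SE 0.28, adjusted p = 3.85e-06). A/J had 7.03, 6.50, 7.31 and 6.74 at T1, against 9.08, 8.56, 7.45 and 8.17 at T0 (-1.42, SE 0.24, adjusted p = 1.05e-05). In these 3 strains no T1 array reached a T0 array, as for 33.9% of genes in A/J.

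The Iigp1 values of the other strains overlapped. DBA/2J had 6.76, 6.69 and 6.60 at T1, against 6.85, 6.75 and 6.73 at T0 (-0.10, SE 0.28, adjusted p = 0.782). 129X1/SvJ had 6.36, 5.52 and 6.36 at T1, against 6.24, 6.80 and 5.79 at T0 (-0.20, SE 0.28, adjusted p = 0.579). Both strains were already low at T0, near the T1 levels of the other strains.

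The 4 shared probe sets were all lower at T1 in the mean over strains, against 44.7% of the 12304 genes and shared probe sets fitted together. In single strains they were called lower in 18 of 20 comparisons, against shares of 37.2% (C57BL/6J), 34.8% (A/J), 34.7% (DBA/2J), 33.4% (129X1/SvJ) and 32.4% (Balb/c). The 2 probe sets listed for Tgtp2 and Tgtp1 correlated at 0.999 over the 34 arrays, so they do not count as separate measurements. The probe set listed for Irgm2 and Igtp, both regulators, changed by -1.22 (SE 0.06, adjusted p = 3.15e-17). In C57BL/6J it had 8.23, 8.20, 8.24 and 8.18 at T1, against 10.73, 10.72, 10.43 and 10.44 at T0 (-2.37, SE 0.13, adjusted p = 1.73e-15). In DBA/2J it had 8.92, 8.76 and 8.69 at T1, against 9.42, 9.48 and 9.35 at T0 (-0.62, SE 0.15, adjusted p = 0.000659). In A/J it had 9.17, 8.93, 9.10 and 8.93 at T1, against 10.17, 10.03, 9.22 and 9.73 at T0 (-0.75, SE 0.13, adjusted p = 1.04e-05). No T1 array reached a T0 array of its strain in any of the 5 strains, which in DBA/2J held for 40.1% of genes. Every strain was called lower, as for 24.3% of the genes and shared probe sets.

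The probe sets listed for Tgtp2 and Tgtp1, effector GTPases, had the 2 most negative changes of the 4, -2.30 (SE 0.09, adjusted p = 4.94e-20) for 10385518 and -2.15 (SE 0.09, adjusted p = 1.06e-19) for 10385533. On 10385518, DBA/2J had 8.57, 8.56 and 8.44 at T1, against 10.41, 10.24 and 10.05 at T0. C57BL/6J had 8.59, 8.44, 8.49 and 8.32 at T1, against 11.52, 11.49, 11.36 and 11.43 at T0. Every strain was called lower on both, by 1.71 to 2.99 log2 on 10385518. Balb/c had 8.65, 7.62 and 9.04 at T1, against 11.25, 11.22 and 11.23 at T0, and the 7.62 was Balb/c T1 replicate 2. The Balb/c difference on 10385518 was -2.79 (SE 0.22) with it and -2.38 without it, and was called both ways.

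The probe set listed for Olfr56 and Ifi47 changed by -0.56 (SE 0.06, adjusted p = 1.42e-10). It was lower in A/J (-0.61), Balb/c (-1.0) and C57BL/6J (-1.03), each with no overlap. In DBA/2J it had 8.15, 7.97 and 8.04 at T1, against 7.76, 8.06 and 7.95 at T0 (0.12, SE 0.13, adjusted p = 0.427). In 129X1/SvJ the values were 7.92, 7.85 and 7.59 at T1, against 8.01, 8.23 and 8.02 at T0 (-0.30, SE 0.13, adjusted p = 0.0521), which did not overlap, as for 37.7% of genes, but missed the threshold. It passed in 7 of 34 fits without 1 array, with the lowest adjusted p, 0.0344, without A/J T0 replicate 4. The other 6 left out A/J T0 replicate 2, Balb/c T1 replicates 2 or 4, C57BL/6J T1 replicates 3 or 4, or 129X1/SvJ T1 replicate 1.

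**Figure D2:**
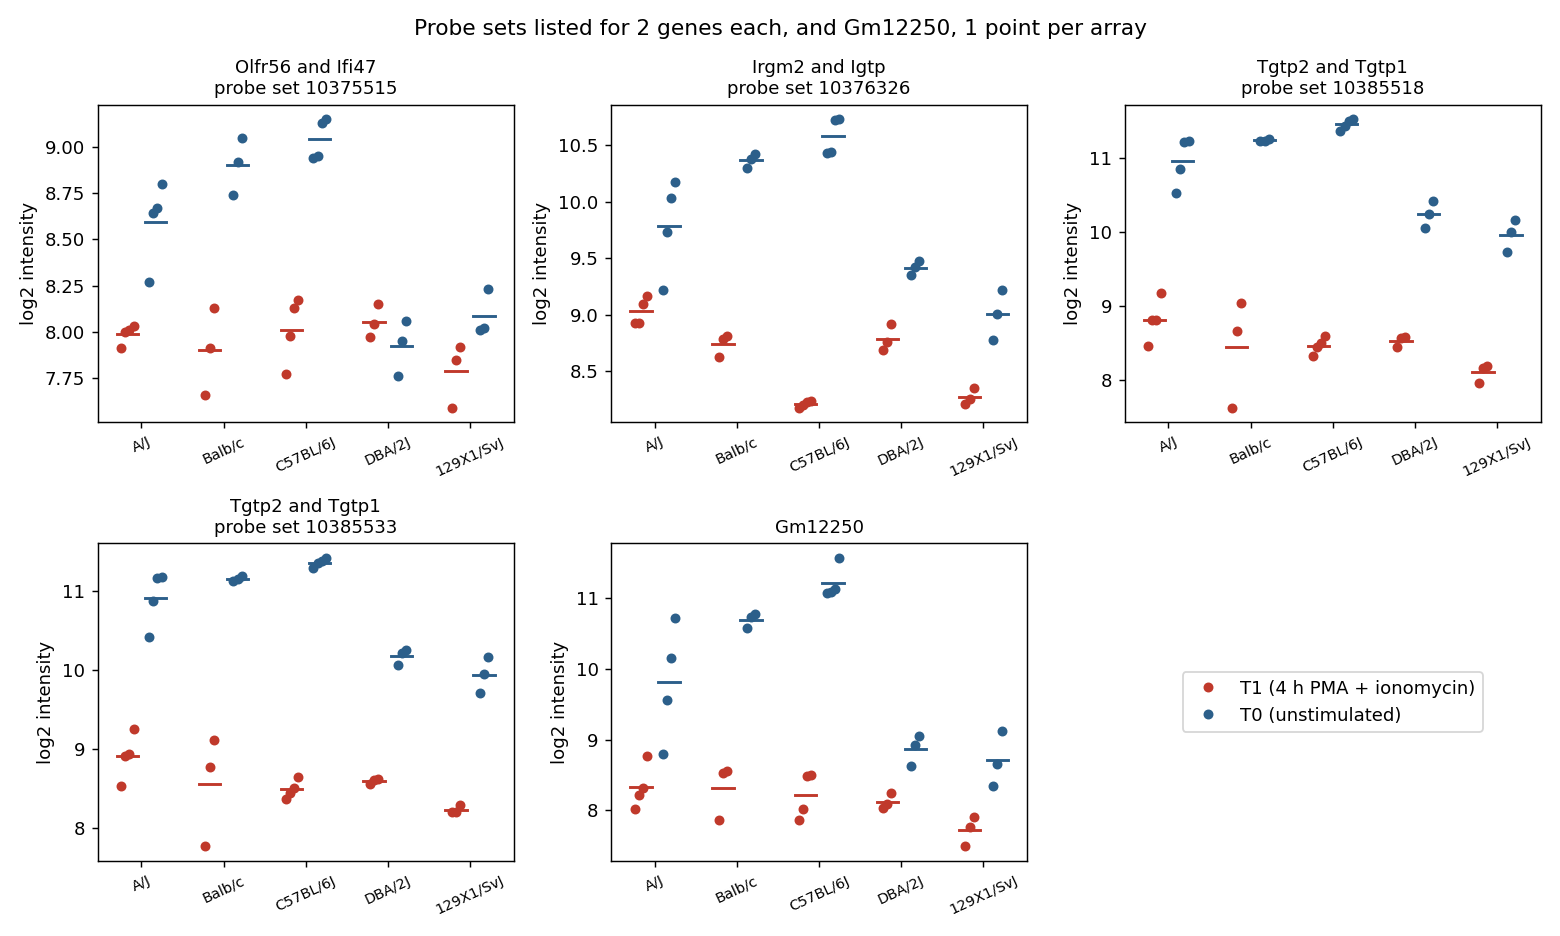
Log2 intensity of the 4 probe sets listed for 2 genes each, and of the related gene Gm12250, on each array by strain, with T1 (red) left of T0 (blue) and bars at the group means. T0 is above T1 in every strain except for the Olfr56 and Ifi47 probe set in DBA/2J, where the arrays of T1 and T0 overlap.

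In unstimulated cells the strains differed for both members. The levels of Irgm1 at T0 ran, from high to low, C57BL/6J (10.84), Balb/c (10.38), A/J (9.87), 129X1/SvJ (9.53) and DBA/2J (9.52), a range of 1.32 log2 or 2.49-fold (F test adjusted p = 3.92e-08). Those of Iigp1 were C57BL/6J (8.89), Balb/c (8.84), A/J (8.31), DBA/2J (6.78) and 129X1/SvJ (6.28), a range of 2.62 log2 or 6.14-fold (adjusted p = 2.04e-09). Strain differences at T0 were called for 18.5% of the genes tested. The T0 range of Irgm1 exceeded that of 97.0% of genes and that of Iigp1 exceeded 99.5%.

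Pairs of strains show where neighbours could not be separated, with p adjusted over genes and the 10 pairs. For Iigp1 at T0, each of A/J, Balb/c and C57BL/6J was above each of DBA/2J and 129X1/SvJ, which gave 6 called pairs of 10. Their differences ran between 1.54 (A/J minus DBA/2J, SE 0.26, adjusted p = 0.000163) and 2.62 (C57BL/6J minus 129X1/SvJ, SE 0.26, adjusted p = 2.26e-08). Within the first 3 strains the adjusted p was 0.199 to 0.967, and DBA/2J minus 129X1/SvJ was 0.50 (SE 0.28, adjusted p = 0.416). At T0, 6.87% of all gene and pair combinations were called.

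For Irgm1 at T0 the 6 called pairs fell differently. C57BL/6J and Balb/c were both above DBA/2J and 129X1/SvJ, by 0.86 to 1.32. A/J was below C57BL/6J (A/J minus C57BL/6J -0.96, SE 0.14, adjusted p = 1.24e-05) and below Balb/c (-0.51, SE 0.15, adjusted p = 0.0322). The last call was lost without A/J T0 replicate 4 (-0.32, adjusted p = 0.173), A/J T0 replicate 5 (0.0507), Balb/c T0 replicate 1 (0.057) or Balb/c T0 replicate 4 (0.22). A/J was not separated from DBA/2J (0.35, SE 0.15, adjusted p = 0.203) or 129X1/SvJ (0.35, SE 0.15, adjusted p = 0.216), nor Balb/c from C57BL/6J (-0.45, adjusted p = 0.0675).

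The shared probe sets had T0 means that put the same 3 strains above the same 2. The Irgm2 and Igtp probe set spanned 1.58 log2 (adjusted p = 1.02e-09), between C57BL/6J (10.58) and 129X1/SvJ (9.0). The Tgtp2 and Tgtp1 probe sets spanned 1.5 (adjusted p = 2.48e-06) and 1.42 (adjusted p = 2.84e-06) between the same strains. The Olfr56 and Ifi47 probe set spanned 1.11 (adjusted p = 3.35e-08), between C57BL/6J (9.04) and DBA/2J (7.93). In all 6 probe sets C57BL/6J had the highest T0 mean, followed by Balb/c and A/J. Called pairs at T0 were 7, 6, 6 and 7 of 10 in that order, against 6.94% of all combinations of pairs with genes or shared probe sets. On the Irgm2 and Igtp probe set A/J was not separated from DBA/2J (0.37, SE 0.14, adjusted p = 0.123). Whether the strains' own sequences match the probes equally well was not tested.

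After stimulation the strains lay closer together for both members. The T1 range of Irgm1 exceeded that of 49.0% of genes, while that of Iigp1 still exceeded 95.2%. At T1 Irgm1 spanned 0.34 log2, between DBA/2J (9.86) and C57BL/6J (9.53), and the F test gave an adjusted p of 0.209, where 31.0% of genes were called. None of the 10 strain pairs was called by limma for Irgm1, and 2 had an unadjusted p under 0.05. Iigp1 spanned 0.99 (adjusted p = 0.0115), with Balb/c (7.07), A/J (6.90), DBA/2J (6.68), C57BL/6J (6.16) and 129X1/SvJ (6.08). Its 3 called pairs, against 9.77% of all gene and pair combinations, were Balb/c over 129X1/SvJ (0.99, adjusted p = 0.0228), Balb/c over C57BL/6J (0.90, adjusted p = 0.026) and A/J over 129X1/SvJ (0.81, adjusted p = 0.0464). They rest on few arrays. The first was kept in 32 of 34 fits without 1 array and was lost without Balb/c T1 replicate 4 (0.86, adjusted p = 0.0864) or 129X1/SvJ T1 replicate 2 (0.71, 0.15). Balb/c over C57BL/6J was lost without Balb/c T1 replicate 4 (0.78, 0.105) or C57BL/6J T1 replicates 2 or 4 (0.0702 and 0.0726). A/J over 129X1/SvJ was kept in 17 of 34 such fits, with a highest adjusted p of 0.273, without 129X1/SvJ T1 replicate 2. It was also lost with no filter on low values (0.0661) and with eBayes with trend and robust settings (0.0576). C57BL/6J, which had the highest T0 mean of both members, had the lowest T1 mean of Irgm1 and the second lowest of Iigp1.

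Of the shared probe sets, that of Irgm2 and Igtp differed between strains at T1 (adjusted p = 5.83e-05, against 30.8% of genes and shared probe sets called), between A/J at 9.03 and C57BL/6J at 8.21. It had 6 called pairs of 10, against 9.72% of all combinations. The Olfr56 and Ifi47 probe set did not pass the test (adjusted p = 0.417), nor did the Tgtp2 and Tgtp1 probe sets (adjusted p = 0.082 for 10385518 and 0.0782 for 10385533). The last 2 were called without Balb/c T1 replicate 2 (adjusted p = 0.00226 and 0.00186), without Balb/c T1 replicate 4 (0.0151 and 0.0197) and without A/J T1 replicate 2 (0.046 and 0.0381).

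The change with stimulation depended on strain for both members and for all 4 shared probe sets, against 6.92% of genes and 6.73% of genes and shared probe sets. For Irgm1 the interaction F test gave an adjusted p of 2.17e-05, with responses between 0.34 in DBA/2J and -1.31 in C57BL/6J. That spread of 1.65 log2 exceeded that of 99.1% of genes. For Iigp1 it gave 3.32e-05, with responses between -0.10 in DBA/2J and -2.73 in C57BL/6J, a spread that exceeded 99.9% of genes. Since a response is T1 minus T0, the T0 differences given above enter it.

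Called pairs of responses were 5 of 10 for each member, against 1.82% of all gene and pair combinations. The Irgm1 response of C57BL/6J differed from those of DBA/2J (C57BL/6J minus DBA/2J -1.65, SE 0.21, adjusted p = 1.74e-05), 129X1/SvJ (-1.37, adjusted p = 0.000252), A/J and Balb/c, and that of Balb/c from DBA/2J. Balb/c minus C57BL/6J (0.79, adjusted p = 0.0483) stayed called in only 8 of 34 fits without 1 array and Balb/c minus DBA/2J (-0.87, 0.0397) in 26, with highest adjusted p of 0.141 and 0.12, and both were lost with no filter on low values (0.0747 and 0.0618). For Iigp1, C57BL/6J differed from DBA/2J (-2.63, SE 0.37, adjusted p = 7.87e-05), 129X1/SvJ (-2.54, adjusted p = 0.000133) and A/J, and Balb/c from DBA/2J and 129X1/SvJ. A/J minus C57BL/6J (1.31, adjusted p = 0.0418) stayed called in 16 of 34 such fits and was lost with no filter (0.0571) and with eBayes with trend and robust settings (0.0542). Balb/c minus 129X1/SvJ (-1.57, 0.0323) stayed called in 27 and Balb/c minus DBA/2J (-1.67, 0.0211) in 33. Pairs with C57BL/6J on one side and DBA/2J or 129X1/SvJ on the other were called in all 34. DBA/2J and 129X1/SvJ were not separated for Irgm1 (0.28, SE 0.23, adjusted p = 0.731) or for Iigp1 (0.10, SE 0.40, adjusted p = 0.969). Of the variation in Irgm1 values, 40.1% lay in the interaction of strain and time, 28.4% in strain, 17.8% in time and 13.8% in the residual. The interaction held 20.99% of the variation of Iigp1, 22.2% of that of the Olfr56 and Ifi47 probe set and 19.2% of that of the Irgm2 and Igtp probe set, but only 4.00% and 4.45% for the Tgtp2 and Tgtp1 probe sets. The medians over genes, each share taken separately, were 4.72% for the interaction, 9.90% for strain, 45.8% for time and 26.3% for the residual. The probe set of Irgm2 and Igtp had 7 called pairs of responses, that of Olfr56 and Ifi47 had 5 and those of Tgtp2 and Tgtp1 had 2 each, against 1.81%.

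**Figure D3:**
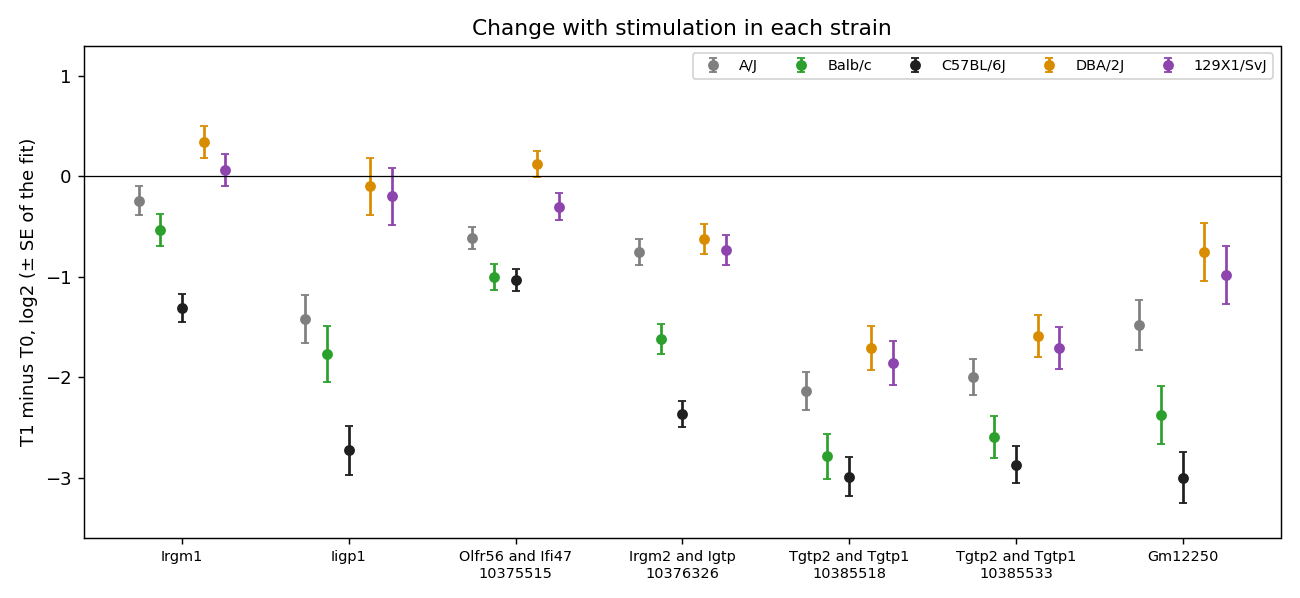
T1 minus T0 in log2 units (vertical axis) with the standard error of the fit, for each strain, for Irgm1, Iigp1, the 4 shared probe sets and Gm12250. C57BL/6J (black) has the most negative value of each, -1.31 for Irgm1, -2.73 for Iigp1 and -3.0 for Gm12250, and DBA/2J (orange) the highest, up to 0.34 for Irgm1.

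Other IRG genes with a probe set of their own were 6 of 18 on a list of the family, and 5 passed the limit on low values. Gm12250 (RefSeq synonym Irgb10), known in mouse macrophages to act on bacterial membranes, changed by -1.72 (SE 0.12, adjusted p = 7.18e-14). In C57BL/6J it had 8.49, 7.87, 8.50 and 8.02 at T1, against 11.57, 11.13, 11.09 and 11.08 at T0, an 8.00-fold lower intensity at T1. In DBA/2J it had 8.03, 8.25 and 8.09 at T1, against 9.05, 8.93 and 8.63 at T0 (-0.75, SE 0.29, adjusted p = 0.0283). The DBA/2J call was lost without any 1 of 4 DBA/2J arrays, T0 replicates 2 or 3 or T1 replicates 2 or 4, with adjusted p between 0.0644 and 0.0934. At T0 Gm12250 spanned 2.51 log2 over strains (adjusted p = 1.92e-08), with C57BL/6J highest (11.22) and 129X1/SvJ lowest (8.71).

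Gm12185 changed by -1.51 (SE 0.09) and Irgq, an IRG-like gene, by -0.95 (SE 0.08), both lower at T1 in 17 of 17 same-numbered cases. Gm4951 changed by -0.61 (SE 0.13), and Irgc1, a family member known from testis, by 0.17 (SE 0.06, adjusted p = 0.0138). Of these 5, 4 were called lower at T1 and 1 higher, where 46.3% of all genes were called lower and 36.0% higher. Their median was -0.95, beside -0.07 for all genes tested. Gm12185 means at T1 were 4.45 to 4.57, under the limit of 5.327, and those of Irgc1 were 4.91 to 5.43 at T1 and 4.68 to 5.28 at T0, so unspecific signal may form a large share of them.

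Interferon-gamma itself rose in every strain. Ifng was 5.26 log2 higher at T1 (SE 0.09, adjusted p = 3.2e-29), a direction called for 36.0% of genes. Within strains the share called higher was 25.1% (C57BL/6J), 23.8% (DBA/2J), 21.6% (129X1/SvJ), 20.6% (Balb/c) and 20.3% (A/J). In C57BL/6J it had 11.50, 11.33, 11.44 and 11.42 at T1, against 6.51, 7.18, 7.04 and 7.04 at T0. In DBA/2J it had 11.64, 11.44 and 11.37 at T1, against 5.41, 5.20 and 5.19 at T0. T1 means lay between 11.29 and 11.48 in all strains, and T0 means were 6.94 in C57BL/6J, 6.61 in Balb/c, 6.58 in A/J, 5.35 in 129X1/SvJ and 5.27 in DBA/2J.

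The T0 differences of Ifng (adjusted p = 4.25e-08) put the same 3 strains above the same 2 as for the T0 means of the IRG probe sets. All 6 pairs across that split were called, from 1.22 (A/J minus 129X1/SvJ, adjusted p = 7.66e-05) to 1.67 (C57BL/6J minus DBA/2J, adjusted p = 5.23e-07), and the pairs within it had adjusted p of 0.334 or more. The 2 lowest means lie near the limit of 5.327, so the size of the difference is uncertain there. Of 8 interferon ligand genes, 6 had a probe set of their own and 2 passed the limit. The other, Ifnl2, a type III interferon, gave 0.14 (adjusted p = 0.11).

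The receptor and kinase genes mostly fell. Of 7 tested, 6 were lower and 1 was higher at T1, with a median of -0.67, where 46.3% of all genes were called lower and 36.0% higher. Ifngr1, the ligand-binding chain of the interferon-gamma receptor, changed by -2.70 (SE 0.07), with 7.49, 7.13, 7.59 and 7.41 at T1 in C57BL/6J, against 10.49, 10.27, 10.58 and 10.5 at T0. Ifngr2, its signalling chain, changed by -1.07 (SE 0.05) and Jak1 by -0.59 (SE 0.04). Jak2 rose by 1.17 (SE 0.06). Ifngr1, Ifngr2 and Jak1 were called lower in all 5 strains, as were 25.6% of genes. Jak2 was called higher in all 5, where 20.3% (A/J) to 25.1% (C57BL/6J) of genes were called higher in single strains. No receptor or kinase gene had a strain-dependent change by limma, and 3 of 7 had an unadjusted p under 0.05.

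Among transcription factors of the pathway, 7 of 10 were lower and 3 higher (median -0.75), against 46.3% and 36.0% of all genes. Irf8, which pairs with Irf1 on interferon response elements, rose by 1.79 (SE 0.07). It was called higher in all strains, where 20.3% (A/J) to 25.1% (C57BL/6J) of genes were called higher in single strains. Irf1 had a mean change of 0.25 (SE 0.08, adjusted p = 0.00294) with opposite calls among strains. It had 10.96 to 11.01 at T1 in C57BL/6J, against 11.34 to 11.70 at T0 (-0.52, adjusted p = 0.00414). In 129X1/SvJ it had 10.87 to 11.16 at T1, against 10.01 to 10.19 at T0 (0.84, adjusted p = 0.000153). Irf1 was also called higher in A/J (0.46, adjusted p = 0.0118) and DBA/2J (0.69, adjusted p = 0.00123). In Balb/c it was not called (-0.21, adjusted p = 0.34). Such opposite calls, lower in at least 1 strain and higher in another, were found for 0.78% of genes.

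Inhibitors of the pathway were 3 higher, 4 lower and 2 not called, of 9, shares close to those of all genes. Socs1, which blocks the Jak kinases, gave 0.12 in the mean (SE 0.08, adjusted p = 0.194), with -0.69 in Balb/c and -0.62 in C57BL/6J called lower, and 0.88 in DBA/2J and 1.21 in 129X1/SvJ called higher. Socs1 means at T1 ran between 7.89 and 8.37. Its T0 means ran between 8.56 and 8.76 for C57BL/6J, Balb/c and A/J, with DBA/2J at 7.12 and 129X1/SvJ at 6.83 (adjusted p = 3.9e-10). Irf1 at T0 ran down to 10.18 in DBA/2J and 10.13 in 129X1/SvJ, with C57BL/6J at 11.5, Balb/c at 11.21 and A/J at 10.68 (adjusted p = 1.15e-07).

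**Figure D4:**
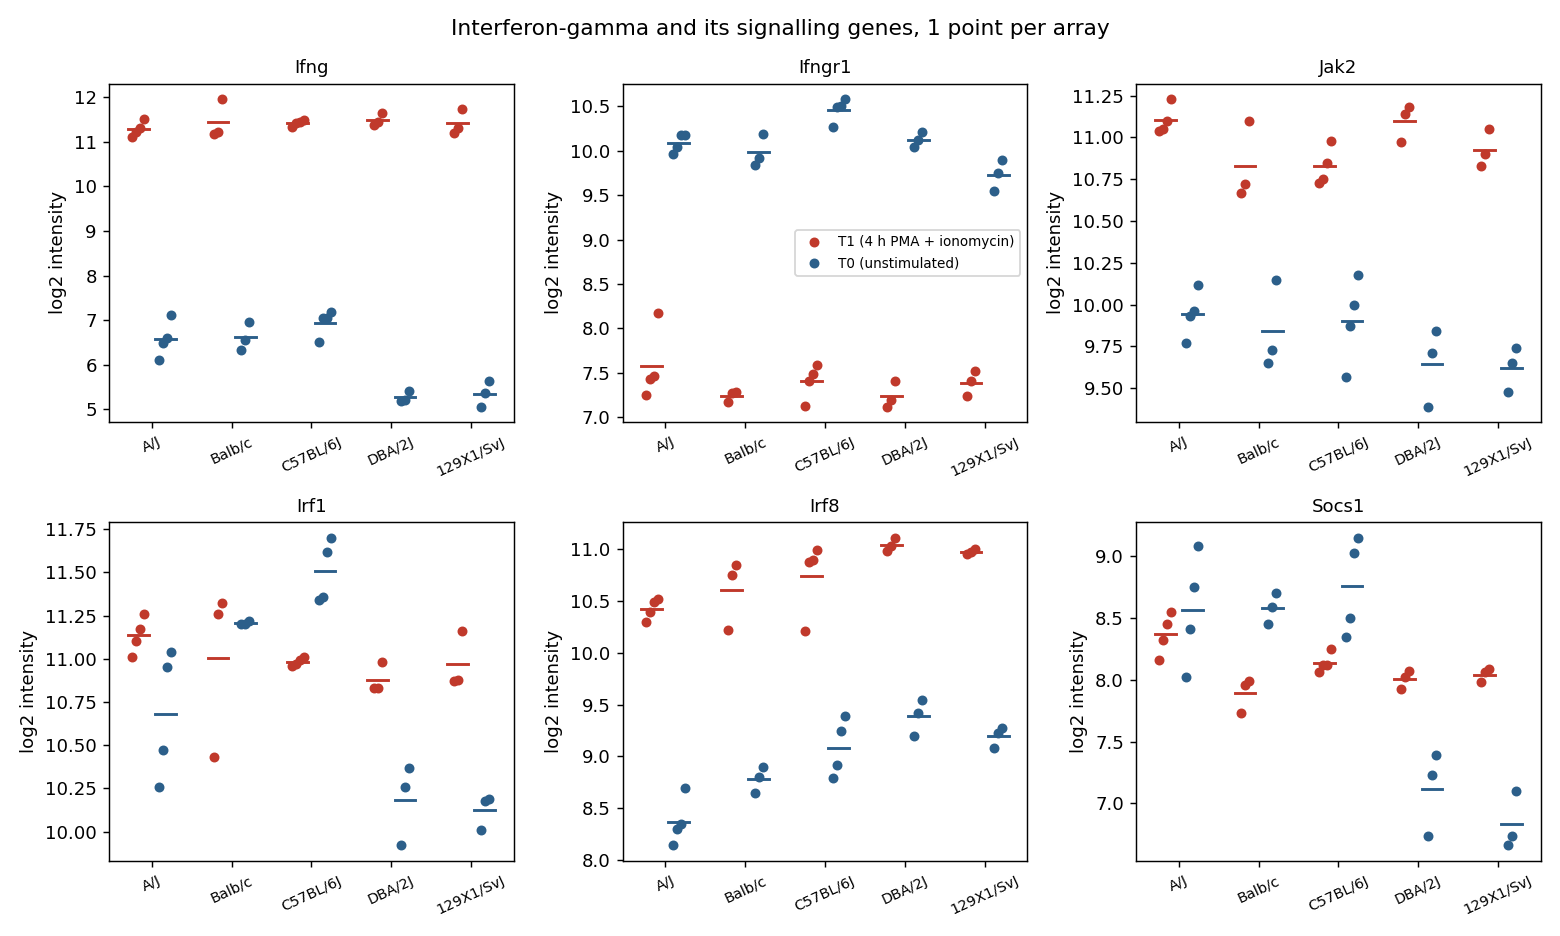
Log2 intensity of Ifng, its receptor chain Ifngr1, the kinase Jak2, the transcription factors Irf1 and Irf8 and the inhibitor Socs1 on each array by strain, with T1 (red) left of T0 (blue) and bars at the group means. Ifng is above 11 in all strains at T1 and lowest in DBA/2J (mean 5.27) and 129X1/SvJ (5.35) at T0.

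Other genes induced by interferon-gamma did not all follow the IRG genes. Of 8 guanylate-binding protein genes tested, which encode larger GTPases that act on the same vacuoles, 4 were higher, 3 were lower and 1 was not called at T1, with a median of 0.07. Of the 8, 7 differed between strains at T1, 8 at T0 and 8 in their response, against 31.0%, 18.5% and 6.92% of all genes. Gbp5 at T0 had 9.59 in Balb/c and in C57BL/6J and 8.83 in A/J, against 7.52 in 129X1/SvJ and 7.28 in DBA/2J (adjusted p = 7.49e-13). Gbp2b at T0 had a different order, with Balb/c highest, 10.41 in A/J, 8.95 in 129X1/SvJ, 5.42 in DBA/2J and 5.14 in C57BL/6J. Gbp2 was not analysed here.

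Of 22 further interferon-gamma targets, 13 were lower, 6 were higher and 3 were not called (median -0.45), against 46.3% lower and 36.0% higher among all genes. Of these 22, 13 differed between strains at T0, against 18.5% of all genes. Cd274, which encodes the inhibitory ligand PD-L1, rose by 1.71 (SE 0.06). Samhd1, a nucleotide hydrolase that restricts viruses, changed by -1.60 (SE 0.06), Dtx3l, a ubiquitin ligase, by -2.11 (SE 0.10) and Psmb10, an immunoproteasome subunit, by -1.25 (SE 0.06). Cd274 at T0 had 9.94 in C57BL/6J, 9.51 in Balb/c and 8.88 in A/J, against 8.28 in 129X1/SvJ and 8.25 in DBA/2J. Autophagy genes, whose products place IRG and guanylate-binding proteins on vacuoles, were 7 lower, 2 higher and 4 not called of 13 (median -0.16), and 1 of them differed between strains at T0. The share lower is near the 46.3% of all genes, and 18.5% of all genes differed between strains at T0. Atg3, an enzyme of LC3 lipidation, rose by 0.65 (SE 0.05), while Atg5 changed by -0.30 (SE 0.05).

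**Figure D5:**
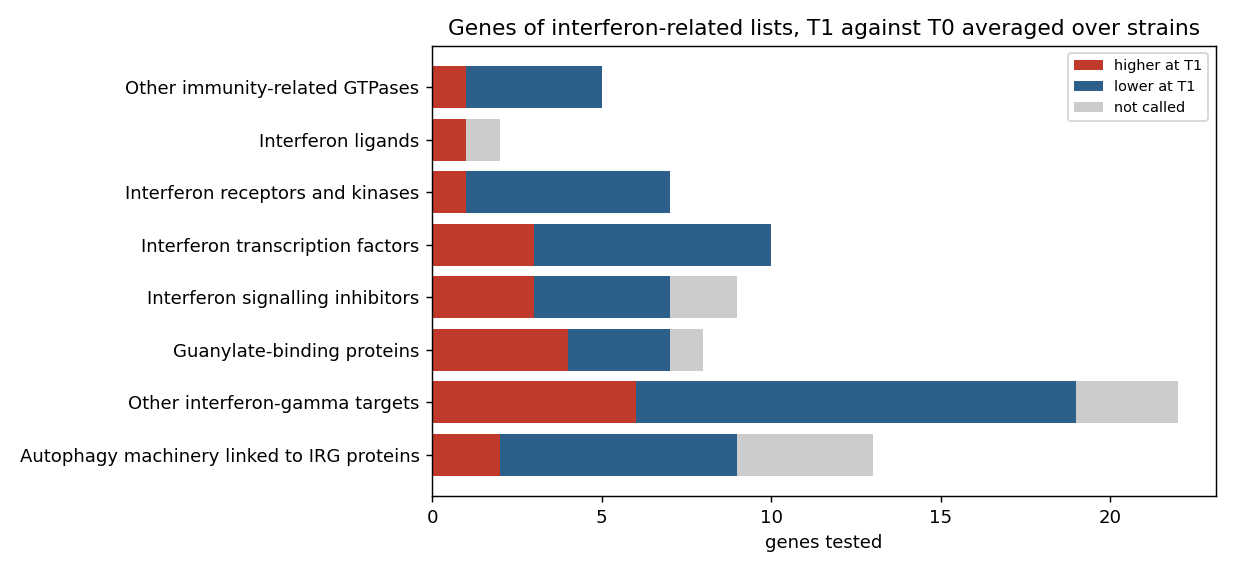
Number of genes tested in each interferon-related list that were called higher at T1 (red), called lower at T1 (blue) or not called (grey) in the mean over strains. Receptor, kinase and transcription factor genes are mostly blue, and guanylate-binding protein genes are split, 4 higher and 3 lower.

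Genes of other cell types moved with some of these comparisons. B cell genes, 9 of 10 tested, averaged 6.57 to 6.93 at T1, and 7 of the 9 were called lower and 2 higher. Of all genes, 46.3% were called lower at T1 and 36.0% higher. At T0 they averaged 8.54 in DBA/2J and 8.49 in 129X1/SvJ, where IRG values were low, and 7.66 to 7.93 in the other strains. Of 8 neutrophil genes tested, of 10, 7 fell at T1, and at T0 they averaged 5.15 in C57BL/6J, against 6.40 to 7.33 in the other strains. All 5 erythroid genes tested differed between strains at T0 and at T1, against 18.5% and 31.0% of all genes. At T0 they averaged 5.23 in 129X1/SvJ and 6.81 to 8.47 in the other strains. The 11 macrophage and monocyte genes averaged 6.64 to 7.02 at T0, and limma called no strain difference there, with 0 of 11 also at an unadjusted p under 0.05. Their average varied within strains at T0, from 6.57 to 7.19 over A/J arrays and from 6.04 to 7.45 over C57BL/6J arrays. Such spread limits what this test can separate, and the lack of calls does not show even levels across arrays. CD8 T and natural killer cell genes, 7 of 9 tested, averaged 5.48 to 6.04 at T1, and 5 of the 7 were called lower and 1 higher. At T0 they averaged 6.49 in C57BL/6J and 6.47 in Balb/c, where IRG values were highest, and 5.69 to 6.00 in the other strains. Dendritic cell genes, 5 of 7 tested, averaged 6.41 in DBA/2J and 6.28 in 129X1/SvJ at T0, with 5.74 to 6.03 in the other strains. The part of other cells in the IRG values was not tested.

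The genes most alike Irgm1 over the 10 group means, by Pearson's r, were Tspan9 (0.954), Sag (0.937) and Zbtb16 (0.91). With each time's mean subtracted they were Cd274 (0.961), Gna13 (0.956) and Tspan9 (0.945). For Iigp1 they were Acer2 (0.949), Trat1 (0.943) and Isy1 (0.943), and, with time subtracted, Dapp1 (0.957), Insl6 (0.945) and Isy1 (0.936). These are the highest of 11413 values over only 10 points that share the same arrays. Tspan9 at T0 had 6.67 in C57BL/6J and 6.40 in Balb/c, and lower means of 5.63 in DBA/2J and 5.46 in 129X1/SvJ.

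Genes that border the chromosome 11 IRG clusters in the RefSeq order were chosen after the annotation was seen. Of 12 such genes, 3 on each side of both clusters, 2 differed between strains at T0, Trim7 (adjusted p = 2.68e-05) and Timd4 (adjusted p = 0.00271), against 18.5% of all genes. Only Trim7 of the 12 had a strain-dependent change (adjusted p = 0.0107), against 6.92% of all genes. Both counts are near those shares. Trim7 encodes a ubiquitin ligase and Timd4 a phosphatidylserine receptor.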

How the data were processed

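The authors deposited 1 table of log2 intensities for 35556 probe sets on 34 arrays, made with RMA per the submitters' processing notes (version and array annotation build not given in the sources used here). Gene names came from the platform annotation, in which 21789 probe sets had 1 symbol, 1621 several and 12146 none. The brightest 1-symbol probe set over all arrays stood for a gene. Genes were tested if any of the 10 group means was at least 5.327, the overall median, so that 11413 remained and 8525 did not. One limma fit (limma 3.58.1, R 4.3.3) over 10 groups gave all contrasts and F tests, with Benjamini-Hochberg adjustment across those 11413 genes, or across genes and 10 pairs for strain pairs. The script was tested on simulated data. Shared probe sets were tested in a wider fit of 12304 features, added after the annotation was seen.

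Members and gene lists were chosen with earlier results of these data known. Genes named from a list are up to 5 with the smallest adjusted p in a comparison, and Ifng, Ifngr1, Ifngr2, Jak1, Jak2, Irf1, Irf8 and Socs1 always. Alternatives were no filter, quantile normalisation, the mean of a gene's probe sets, eBayes with trend and robust settings, replicate blocks and leaving out arrays. The labels call the arrays biological replicates without tying T1 and T0 arrays to 1 animal, and precision is limited by 3 or 4 arrays per group. Same-numbered T1 and T0 arrays of a strain correlated at -0.0785 to 0.474 (deviations from group means, median 0.258), over 0.1 in 14 of 17. Same-numbered arrays of different strains at the same time correlated at -0.177 to 0.552, with a similar median of 0.243. The numbers are not spread evenly over strains, and what they stand for was not tested. Treating numbers as pairs required every value to be over 0.1, which A/J number 4 and DBA/2J numbers 2 and 4 did not reach, so the replicate block was kept as an alternative. Python 3.11.15, pandas 2.3.3, numpy 2.4.6 and matplotlib 3.10.9 handled tables and figures.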

Additional observations from a re-analysis of the deposited data

Results flagged for a closer look

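The change with stimulation differed between strains by the interaction F test of limma for Irgm1 (adjusted p = 2.17e-05), Iigp1 (3.32e-05), the Irgm2 and Igtp probe set (3.1e-07), the Olfr56 and Ifi47 probe set (0.000128), the Tgtp2 and Tgtp1 probe sets (0.00721 for 10385518 and 0.00549 for 10385533) and Gm12250 (0.00046). It also differed for Ifng (6.33e-05), Irf1 (0.000349) and Socs1 (1e-05). Among these, C57BL/6J had the most negative change of each IRG probe set, of Gm12250 and of Irf1.

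Gm12250 in C57BL/6J T0 replicate 1 stood above the rest of its group at 11.57, the other 3 arrays lying at 11.08 to 11.13. It was the only array set apart by its distance in 40 groups of 4 tested, where about 1 in 20 would be by chance.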

How the results depend on the processing

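Both members kept their direction and their call for the mean change, for strains at T0, for strains at T1 and for the response under all 8 other settings that gave a value and under each of the 34 fits without 1 array. The mean change ranged over the other settings from -0.41 to -0.34 for Irgm1 and from -1.33 to -1.17 for Iigp1. Over fits without 1 array it ranged from -0.37 to -0.31 for Irgm1 and from -1.30 to -1.19 for Iigp1. The adjusted p for Irgm1 at T1 came down to 0.0528 under another setting and to 0.0681 without 1 array. The number of shared probe sets called for strains at T1 was 1, and was 3 without both Balb/c arrays numbered 2 and 1 to 3 over fits without 1 array. With strain and number as a replicate block, Irgm1 gave -0.34 (adjusted p = 0.000196), Iigp1 gave -1.24 (adjusted p = 3.03e-08), and the responses gave adjusted p of 0.00038 and 0.000782. That block added 1 call, the change of the Olfr56 and Ifi47 probe set in 129X1/SvJ (adjusted p = 0.0424). Under the replicate blocks 152 values kept their side of the threshold and 7 strain pairs lost their call. Of these 3 were responses of members, Balb/c minus C57BL/6J for Irgm1 (adjusted p = 0.058) and A/J minus C57BL/6J (0.0666) and Balb/c minus 129X1/SvJ (0.0552) for Iigp1. In the check of the numbers, 25 of 34 arrays correlated best with their own number at the other time, a hint from the data only. Directions turned only in changes that were not called. Irgm1 in 129X1/SvJ was -0.05 with quantile normalisation and -0.03 without 129X1/SvJ T1 replicate 4, where the fit of all arrays gave 0.06, and fits without 1 array ran between -0.03 and 0.17. Iigp1 in DBA/2J was 0.06 with quantile normalisation, against -0.10. Iigp1 in 129X1/SvJ was 0.09 and 0.06 without replicate 2 at T1 or at T0, against -0.20, and such fits ran between -0.44 and 0.09. The cause of these shifts was not tested. Called strain pairs numbered 25 of 60 for both members, 21 to 28 under other settings and 19 to 30 without 1 array. Signal near the limit, as for Ifng at T0 in 2 strains, and 3 or 4 arrays per group limit what can be separated.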
